A study of Homo sapiens with 8 samples.

Results

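The nuclear genes for the proteins of the mitochondrial ribosome were compared between HepG2 cells grown for 8 days on a flat surface (2D-primed) or on a porous scaffold (3D-primed). The genes were chosen by name. They comprise every protein-coding gene in the GENCODE annotation whose symbol is MRPL or MRPS followed by a number, with pseudogenes left out, and reaching 10 counts or more in 2 or more libraries. The annotation holds 78 such genes and all 78 are listed in the deposited tables. The filter kept 77 of them, 48 MRPL and 29 MRPS, out of 13943 genes tested and 38032 gene identifiers listed. The 1 gene removed was MRPL45 (chr17:38297023-38323217), which had 0, 4, 0 and 15 counts in the 2D-primed libraries and 3, 9, 4 and 4 counts in the 3D-primed libraries. Whether its reads were given to another identifier was not tested.

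HepG2 is a hepatocyte-like line from a human hepatocellular carcinoma, and both groups were the unmodified line (labelled WT) in the same serum-containing medium. The 4 2D-primed cultures grew as a layer on plastic, and the 4 3D-primed cultures grew as stacked cells on Alvetex, an inert polystyrene scaffold. The cells of both groups were later freed with trypsin by the same method. Seeding may also have differed between the groups. Scaffolds were seeded at high density, with more cells per larger insert than per flat well and as many per smaller insert. Which insert size was used for the RNA is not stated. Because HepG2 is a single tumour line, the comparison has no second cell source. The replicate numbers come from the labels, which do not say how the cultures of a group relate to each other, so that p-values measure the spread between these libraries.

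Mitochondrial ribosomes translate the small number of messenger RNAs made from mitochondrial DNA, which encode core subunits of the respiratory chain and of ATP synthase. Their ribosomal RNAs come from mitochondrial DNA, but all of their proteins are encoded in the nucleus, made in the cytosol and imported. The small subunit binds the messenger RNA and reads its codons, and the large subunit forms the peptide bonds. Many of the proteins descend from those of the bacterial ribosome, and many others are found in mitochondria but not in bacteria. The gene symbols predate the structures of the ribosome: the proteins of MRPS30 (mL65) and MRPS18A (mL66) sit in the large subunit, and the product of MRPS36 (KGD4) belongs to the 2-oxoglutarate dehydrogenase complex. In the unified names used here, u marks a protein shared by all domains of life, b one shared with bacteria and m one found in mitochondria.

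Some members share a short sequence near their transcription start, and these stretches are shown because the element lies at almost the same place in genes that changed in different ways. The sequences are RefSeq windows of GRCh38.p14, from 250 bases before to 50 bases after the start, read 5′ to 3′ on the strand of the gene. A window was found for 68 of the 77 members. The element AAGATGGC, the core of the sequence that the transcription factor YY1 binds, was found on either strand in 19 of the 68 windows (27.9%), against 5.45% of the 10189 windows of all tested protein-coding genes. Of its 20 matches in the members, 16 were on the strand of the gene and 14 started after the transcription start. The following stretches of 30 bases hold the element, which is in capitals.
MRPL46 (chr15:88467362-88467391, minus strand): tgggagaacgaAAGATGGCggcgcccgtaa
MRPS7 (chr17:75261887-75261916, plus strand): cgtggccagccAAGATGGCtgcccccgcag
MRPL20 (chr1:1407260-1407289, minus strand): ccgacccgggcAAGATGGCagcggcgctgc
MRPL50 (chr9:101398577-101398606, minus strand): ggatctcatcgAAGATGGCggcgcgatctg
MRPS18A (chr6:43687764-43687793, minus strand): gtaggtttttgAAGATGGCggccctcaagg
MRPS18B (chr6:30617852-30617881, plus strand): gggcgtacgtcAAGATGGCggcgtctgtat
MRPS30 (chr5:44808949-44808978, plus strand): aatcgcgggcaAAGATGGCggcggccaggt
MRPS10 (chr6:42217834-42217863, minus strand): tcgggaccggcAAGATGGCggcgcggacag
MRPL42 (chr12:93467511-93467540, plus strand): aggattgaaacAAGATGGCgggttcgtggt
Among these, MRPL46 and MRPS7 had 2 of the 5 largest rises of all members, MRPL42 was 1 of the 4 members that fell, MRPL20 and MRPL50 rose (log2 fold changes 0.44 and 0.33), and MRPS18A, MRPS18B, MRPS30 and MRPS10 did not pass the test in either direction.

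Whole windows are shown for MRPL46 and MRPL30, which rose the most among the MRPL members, and for MRPS5, which fell. Capitals mark AAGATGGC, the ETS-factor core CCGGAAG and the NRF1 element (GCGC and TGCGC with 1 base of any kind between them), each searched on both strands.
MRPL46 (chr15:88467339-88467638, minus strand): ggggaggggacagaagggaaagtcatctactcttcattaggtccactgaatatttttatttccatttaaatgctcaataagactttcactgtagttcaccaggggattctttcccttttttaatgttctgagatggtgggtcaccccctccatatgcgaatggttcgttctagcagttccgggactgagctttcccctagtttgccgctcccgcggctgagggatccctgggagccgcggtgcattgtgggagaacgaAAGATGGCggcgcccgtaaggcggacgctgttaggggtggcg
MRPL30 (chr2:99180934-99181233, plus strand): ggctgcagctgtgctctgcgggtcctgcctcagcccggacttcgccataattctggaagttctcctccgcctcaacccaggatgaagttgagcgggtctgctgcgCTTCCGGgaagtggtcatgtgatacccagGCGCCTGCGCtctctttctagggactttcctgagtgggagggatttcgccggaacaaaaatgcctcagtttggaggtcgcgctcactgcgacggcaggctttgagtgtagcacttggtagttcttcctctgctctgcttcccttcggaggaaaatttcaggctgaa
MRPS5 (chr2:95121759-95122058, minus strand): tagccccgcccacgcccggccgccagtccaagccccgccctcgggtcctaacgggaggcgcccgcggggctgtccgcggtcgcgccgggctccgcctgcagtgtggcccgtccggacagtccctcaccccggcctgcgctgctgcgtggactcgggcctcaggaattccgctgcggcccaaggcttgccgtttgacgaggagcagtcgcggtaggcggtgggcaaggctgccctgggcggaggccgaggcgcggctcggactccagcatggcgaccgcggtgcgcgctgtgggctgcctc
The MRPL46 window also spans the GENCODE start of its neighbour MRPS11 (chr15:88467453), which is transcribed the other way. The RefSeq start of MRPS11 (chr15:88467708) lies outside it. The MRPL46 window holds AAGATGGC 9 bases into the transcript and neither of the other elements. The MRPL30 window holds CCGGAAG on the opposite strand, at position -145 from the start, and an NRF1 element at position -116. The letters of none of the 3 elements are in the MRPS5 window.

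The 8 libraries held 21599630 to 27844077 estimated counts, and libraries of 1 group differed by more than counting noise in every pair, so that none was a copy of another. The hepatocyte genes ALB, AFP, APOA1, APOA2, TTR, SERPINA1 and HNF4A were all above 270 CPM (counts scaled to a common library size) in every library. The leukocyte genes PTPRC and CD3E and the fibroblast gene DCN had at most 2 counts in any library. PECAM1 and VWF lay at 0.733 to 2.04 CPM with overlapping groups. CDH5 lay at 3.67 to 5.13 CPM in the 2D-primed libraries and at 1.32 to 2.04 CPM in the 3D-primed ones, and COL1A1 at 0.675 to 1.21 and at 0 to 0.113 CPM. PDGFRB lay at 10.05 to 11.06 CPM in the 2D-primed and 15.01 to 17.96 CPM in the 3D-primed libraries. In bulk RNA, more transcript per cell and more cells that carry the transcript cannot be told apart.

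Most members were higher in 3D-primed cells, and by a small amount. Of the 77 members, 48 rose (62.3%), 4 fell (5.19%) and 25 did not pass the test (edgeR quasi-likelihood test, adjusted p under 0.05 over all genes tested). Over all 13943 genes the same test called 63.9%, with 32.4% higher and 31.6% lower in 3D-primed cells. The share of members called was therefore near that of all genes, while its split between the directions was not even. The median log2 fold change of the members was 0.24, with quartiles of 0.07 and 0.43, against a median of 0.01 over all genes with quartiles of -0.35 and 0.34. It was positive in 67 of the 77. No member changed by as much as 2-fold, and 13 rose by more than 0.5 on the log2 scale. Of all 13943 genes, 7121 had a positive change, 1814 changed by 2-fold or more in either direction, and 2013 rose by more than 0.5. In 45 members every 3D-primed library lay above every 2D-primed library, in 4 every one lay below, and in 28 the groups overlapped. Over all genes the groups stood apart in 59.8%, with 3D-primed above in 30.2% and below in 29.5%.

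The members' share of all counts was 0.276%, 0.272%, 0.270% and 0.279% in the 2D-primed libraries and 0.338%, 0.336%, 0.304% and 0.325% in the 3D-primed libraries. The groups did not overlap, and the third 3D-primed library was nearest to the 2D-primed level. That library was the lowest of its group in 55 of the 77 members, and the first 3D-primed library was the highest in 48. Without 3D-primed replicate 3, 52 members were higher and 4 lower. The counts without any other library lay between 44 and 48 higher with 4 lower.

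**Figure D1:**
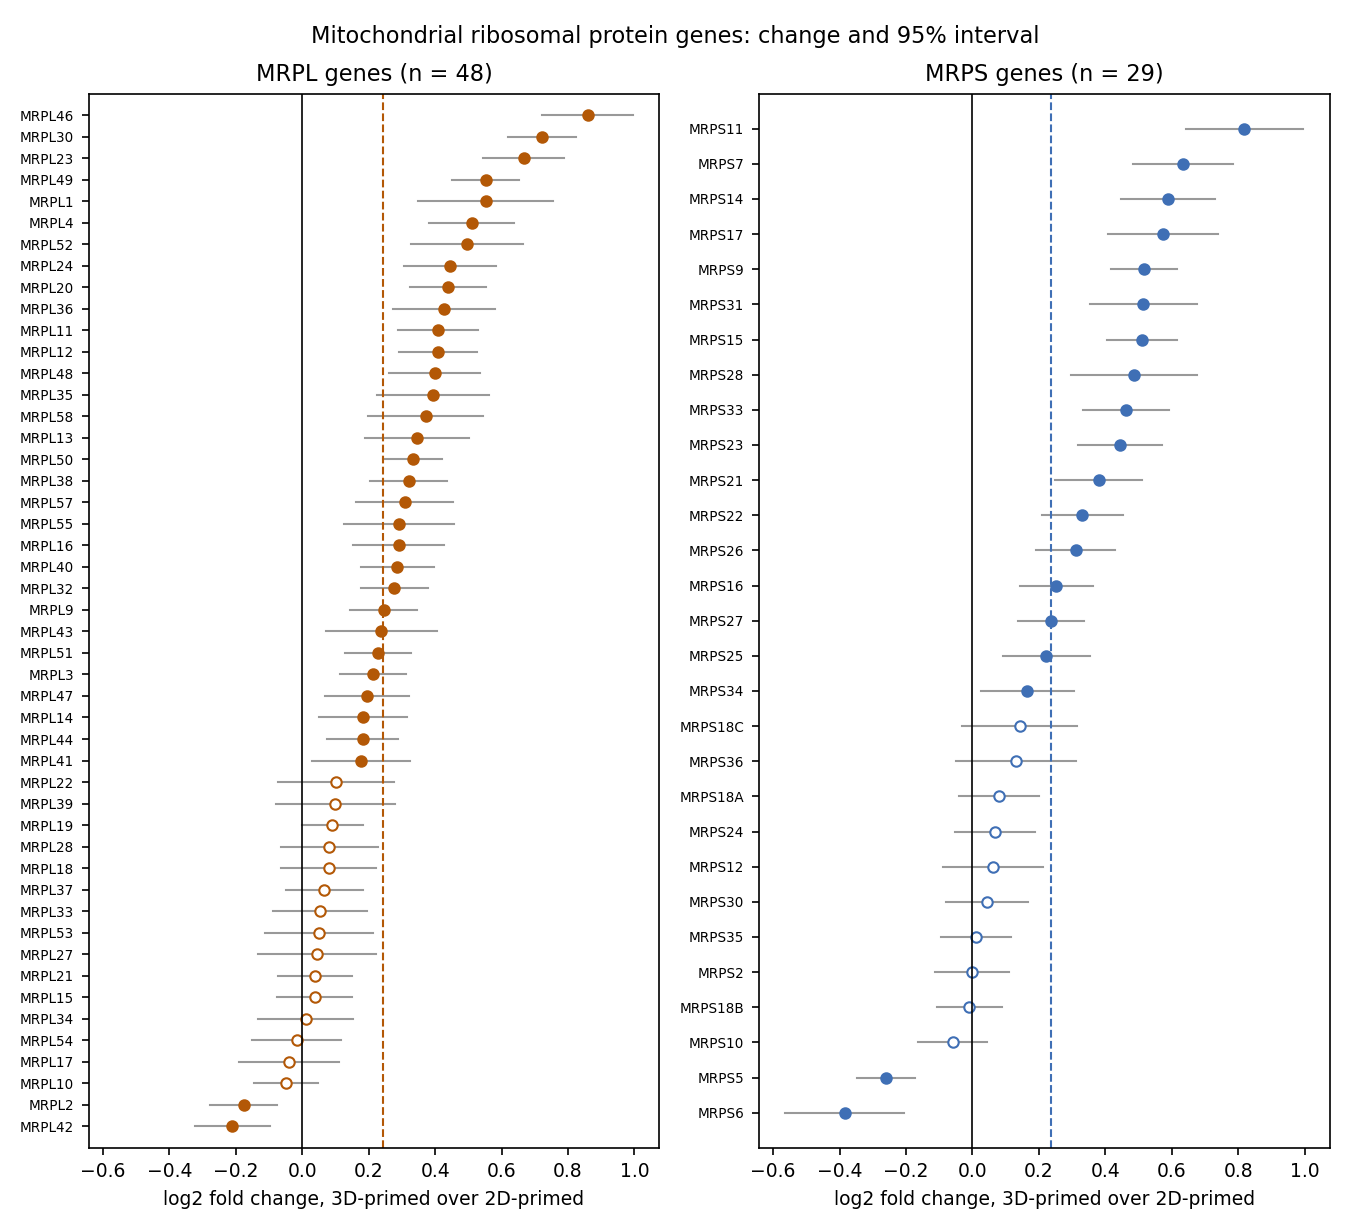
Log2 fold change of every member, 3D-primed over 2D-primed, with its 95% interval from the fit over all genes (MRPL left, n = 48; MRPS right, n = 29). Filled points passed the test, open points did not, and the dashed line is the family's median. Both families run from a few members under 0 to above 0.8 around a median of 0.24.

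The MRPL and the MRPS genes had median changes that differed little. Among the 48 MRPL genes 31 rose (64.6%), 2 fell (4.17%) and 15 did not pass the test, with a median log2 fold change of 0.24. Among the 29 MRPS genes 17 rose (58.6%), 2 fell (6.9%) and 10 did not pass, also with a median of 0.24. Over all genes tested 32.4% rose and 31.6% fell. The summed level of the MRPL genes was 1701, 1716, 1697 and 1731 CPM in the 2D-primed libraries and 2116, 2046, 1872 and 1961 CPM in the 3D-primed libraries. The summed level of the MRPS genes was 1034, 1069, 1055 and 1083 CPM in the 2D-primed and 1291, 1246, 1162 and 1217 CPM in the 3D-primed libraries. Each family's sum was higher in all 4 3D-primed libraries than in any 2D-primed library. The ratio of the MRPL to the MRPS sum was 1.61 ± 0.0214 (SD, n = 4) for 2D-primed and 1.63 ± 0.0170 (SD, n = 4) for 3D-primed cells. These ratios overlapped, at 1.598 to 1.646 in 2D-primed and 1.610 to 1.642 in 3D-primed libraries. The ratio was not tested.

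**Figure D2:**
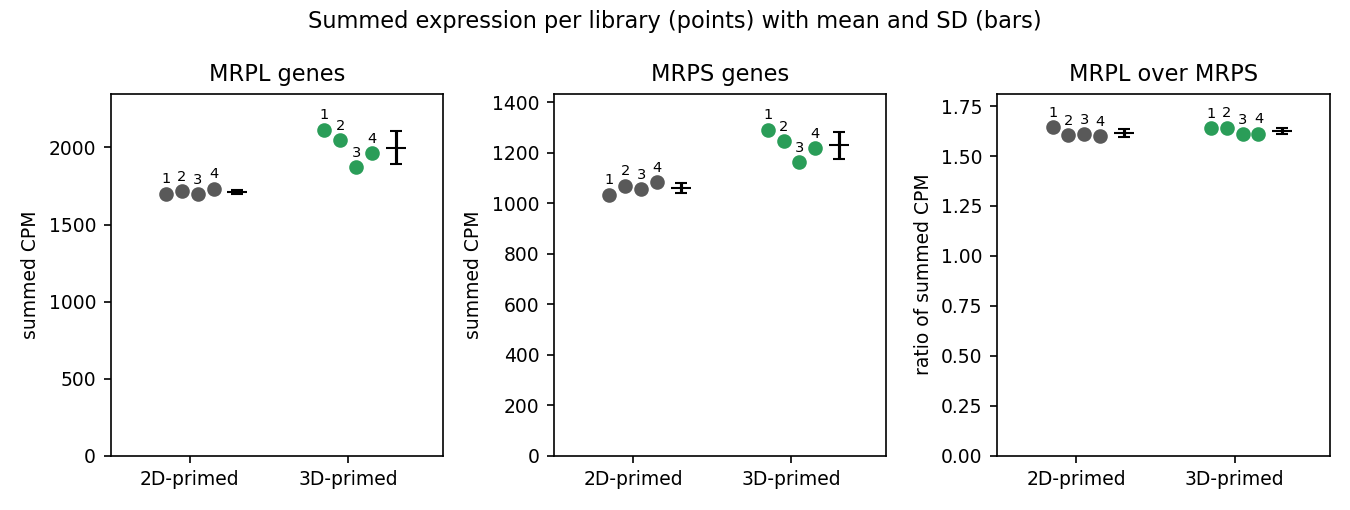
Summed CPM of the 48 MRPL and the 29 MRPS genes in each library, and the ratio of the sums, with the mean and SD (n = 4) beside the numbered replicates. Each sum was higher in 3D-primed cells (1999 against 1711 CPM for MRPL), while the ratio stayed between 1.598 and 1.646 in all 8 libraries.

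The proteins were also grouped by the subunit in which they sit rather than by symbol. Of 50 genes for the large subunit 31 rose (62%) and 2 fell (4%), with a median of 0.23. Of 26 genes for the small subunit 17 rose (65.4%) and 2 fell (7.69%), with a median of 0.28. The ratio of the large to the small subunit's summed CPM was 1.85 ± 0.0186 (SD, n = 4) for 2D-primed and 1.84 ± 0.0168 (SD, n = 4) for 3D-primed cells. So grouped, its mean was slightly lower in 3D-primed cells, where the ratio by symbol was slightly higher, and in both groupings the libraries of the groups overlapped. Among the 46 members with a unified name in u or b, 27 rose (58.7%) and 3 fell (6.52%), with a median of 0.25. Among the 30 with a name in m, 21 rose (70%) and 1 fell (3.33%), with a median of 0.24. Over all genes tested 32.4% rose and 31.6% fell. The names in m include MRPS18A and MRPS18B, although both are paralogs of a bacterial protein.

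To find the members that moved apart from the rest, all genes were fitted again with the library sizes scaled so that the median member had a ratio of 1. On this scale a gene is called when its change differs from that of the typical member, and 63.9% of all genes were called, 15.7% higher and 48.2% lower. Since the members themselves set the zero, they lie on both sides of it by construction. Of the 77, 25 rose beyond the rest (14 MRPL and 11 MRPS), 26 lagged behind it (16 MRPL and 10 MRPS) and 26 were called in neither direction. Across the alternatives tried, 19 of the 25 and 20 of the 26 were called in every one. The 26 that lagged comprised the 4 that fell and 22 that had not passed the test against 0.

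MRPL46 (ENSG00000259494, chr15:88459477-88467390, minus strand) encodes mL46, a large-subunit protein without a bacterial counterpart. It measured 17.3, 17.4, 15.95 and 18.6 CPM in the 2D-primed libraries and 31.5, 32.8, 28.7 and 32.6 CPM in the 3D-primed libraries. Every 3D-primed library exceeded every 2D-primed library by a wide margin. Its log2 fold change of 0.86 (SE 0.0621, adjusted p = 1.15e-06 by edgeR) was the largest of the members, and it exceeded the typical member by 0.62 (adjusted p = 1.01e-05). An annotated gene without a symbol of its own that overlaps MRPL46 on the same strand had a low mean level, 0.818 CPM over the 2D-primed and 1.87 CPM over the 3D-primed libraries.

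MRPS11 (ENSG00000181991, chr15:88467453-88480776, plus strand) encodes uS11m, a protein of the small subunit's platform. In the GENCODE annotation it starts 63 bases from MRPL46 on the other strand. It measured 10.1, 10.0, 8.22 and 8.99 CPM in the 2D-primed libraries and 16.4, 17.0, 15.1 and 17.4 CPM in the 3D-primed libraries. Again the groups stood well apart. Its log2 fold change was 0.82 (SE 0.0795, adjusted p = 8.43e-06 by edgeR), and it exceeded the typical member by 0.58 (adjusted p = 0.000139). The 2 members with the largest rise are thus a divergent pair from 1 locus, 1 from each subunit.

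MRPL30 (ENSG00000185414, chr2:99181152-99199561, plus strand), which encodes uL30m of the large subunit, measured 42.6, 41.6, 38.4 and 39.9 CPM in 2D-primed and 65.9, 71.0, 64.6 and 66.7 CPM in 3D-primed libraries. The libraries within a group differed little beside the gap between the groups. The log2 fold change was 0.72 (SE 0.0460, adjusted p = 5.10e-07 by edgeR), or 0.48 above the typical member (adjusted p = 3.10e-05).

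MRPL23 (ENSG00000214026, chr11:1947278-1984522, plus strand) encodes uL23m, a protein at the exit of the tunnel through which the new peptide leaves. It measured 22.0, 22.2, 19.7 and 22.7 CPM in 2D-primed and 36.5, 33.8, 33.6 and 33.6 CPM in 3D-primed libraries, with no overlap. The log2 fold change was 0.67 (SE 0.0548, adjusted p = 2.71e-06 by edgeR), or 0.42 above the typical member (adjusted p = 9.54e-05).

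MRPS7 (ENSG00000125445, chr17:75261674-75266376, plus strand) encodes uS7m, a protein of the small subunit's head that helps to assemble it. It measured 49.0, 53.7, 49.3 and 56.8 CPM in 2D-primed and 88.4, 83.8, 73.1 and 78.9 CPM in 3D-primed libraries. The third 3D-primed library was the lowest of its group and still above every 2D-primed library. The log2 fold change was 0.63 (SE 0.0681, adjusted p = 1.73e-05 by edgeR), or 0.39 above the typical member (adjusted p = 0.000128).

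The other 20 members that rose beyond the rest had log2 fold changes of 0.38 to 0.59 against 2D-primed cells. For the large subunit they comprised MRPL1, MRPL4, MRPL11, MRPL12, MRPL20, MRPL24, MRPL35, MRPL36, MRPL48, MRPL49 and MRPL52, and for the small subunit MRPS9, MRPS14, MRPS15, MRPS17, MRPS21, MRPS23, MRPS28, MRPS31 and MRPS33. MRPL1 encodes the protein of the stalk past which transfer RNA leaves, and MRPL11 a protein at the site where translation factors bind. A further 23 members rose without differing from the typical member, and their log2 fold changes lay between 0.16 and 0.37.

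The 4 members that fell were MRPS6, MRPS5, MRPL42 and MRPL2, and all 4 were lower in every alternative tried. MRPS6 (ENSG00000243927, chr21:34073224-34143034, plus strand), which encodes bS6m of the small subunit's platform, measured 18.1, 17.9, 22.1 and 21.4 CPM in 2D-primed and 15.6, 14.8, 14.3 and 16.2 CPM in 3D-primed libraries. The groups did not overlap, although the 2D-primed libraries formed a lower and a higher pair. Its log2 fold change was -0.38 (SE 0.0809, adjusted p = 0.00182 by edgeR), and it lay 0.63 under the typical member (log2 difference -0.63, adjusted p = 6.38e-05). SLC5A3, a myo-inositol transporter gene that lies inside the MRPS6 locus on the same strand (chr21:34073578-34106260), fell by 1.21 on the log2 scale (adjusted p = 1.14e-05), from a mean of 77.0 to 33.2 CPM. How far reads of one were counted for the other was not tested.

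MRPS5 (ENSG00000144029, chr2:95085369-95122006, minus strand) encodes uS5m, whose bacterial counterpart takes part in accurate decoding. It measured 61.9, 63.8, 66.6 and 63.2 CPM in 2D-primed and 53.2, 52.1, 52.2 and 55.7 CPM in 3D-primed libraries. The groups were narrow and separate. The log2 fold change was -0.26 (SE 0.0389, adjusted p = 0.000184 by edgeR), and the difference from the typical member was -0.50 (adjusted p = 1.66e-05).

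MRPL42 (ENSG00000198015, chr12:93467514-93516214, plus strand) encodes mL42 and measured 64.5, 66.9, 67.6 and 69.6 CPM in 2D-primed and 58.9, 59.7, 60.9 and 52.5 CPM in 3D-primed libraries. All 3D-primed libraries were lower, the fourth by the most. The log2 fold change was -0.21 (SE 0.0506, adjusted p = 0.00408 by edgeR), and the difference from the typical member was -0.45 (adjusted p = 0.000130).

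MRPL2 (ENSG00000112651, chr6:43054029-43059438, minus strand) encodes uL2m, whose bacterial counterpart lies next to the site of peptide bond formation. It measured 42.2, 43.7, 47.1 and 43.5 CPM in 2D-primed and 40.2, 40.4, 37.96 and 37.8 CPM in 3D-primed libraries. The groups were separate by a narrow gap between the lowest 2D-primed and the highest 3D-primed library. The log2 fold change was -0.18 (SE 0.0453, adjusted p = 0.00613 by edgeR), and the difference from the typical member was -0.42 (adjusted p = 3.39e-05).

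**Figure D3:**
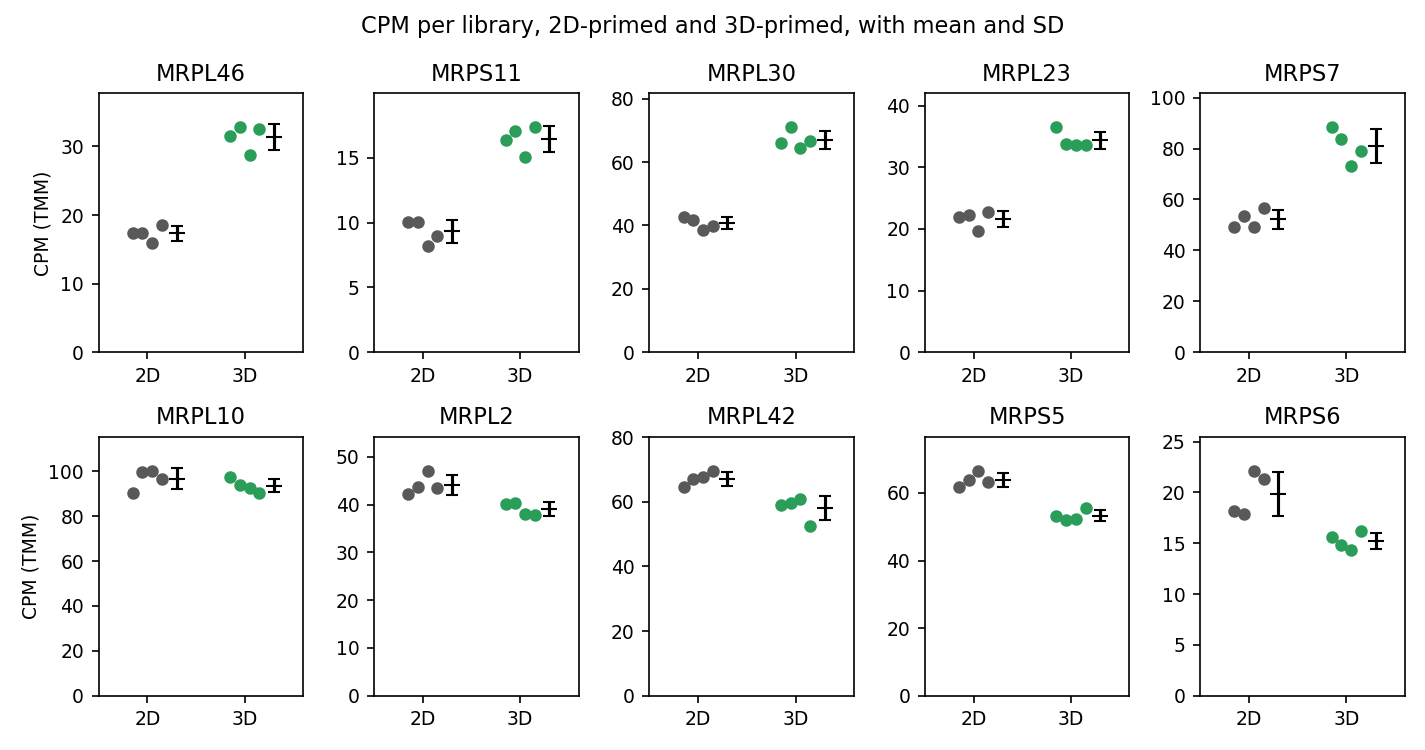
CPM (TMM-scaled) of the 5 members that rose most and of 5 that lagged, in each library, with the mean and SD (n = 4 per group). The groups do not overlap in MRPL46 to MRPS7 (upper row) or in MRPL2, MRPL42, MRPS5 and MRPS6, while MRPL10 overlaps at 90.4 to 100.3 CPM in 2D-primed and 90.3 to 97.4 CPM in 3D-primed cells.

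The stalk of the large subunit recruits the translation factors, and its proteins MRPL10 and MRPL12 changed differently. MRPL10 (uL10m, the base of the stalk, chr17:47823272-47831541) measured 90.4, 99.7, 100.3 and 96.8 CPM in 2D-primed and 97.4, 93.8, 92.8 and 90.3 CPM in 3D-primed libraries, which overlap. Its log2 fold change was -0.05 (adjusted p = 0.352 by edgeR), and its difference from the typical member was -0.29 (adjusted p = 0.000630). MRPL12 (bL12m, the mobile protein bound to that base, chr17:81703367-81707517) measured 67.1, 71.1, 68.2 and 72.2 CPM in 2D-primed and 101, 92.4, 85.1 and 91.6 CPM in 3D-primed libraries. The groups were separate, with a log2 fold change of 0.41 (SE 0.0528, adjusted p = 6.73e-05 by edgeR), 0.16 above the typical member (adjusted p = 0.00685). Relative to the rest of the mitochondrial ribosome MRPL10 lagged and MRPL12 rose. MRPL11, for a protein at the site where translation factors bind, also rose beyond the typical member (0.17, adjusted p = 0.0159 by edgeR). The direction of MRPL10 against 2D-primed cells itself depended on the scaling, with 0.0020 under upper-quartile scaling.

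The 3 paralogs of bacterial S18 are incorporated at separate places in the ribosome, and none of them passed the test. MRPS18A (mL66) measured 34.2, 38.04, 36.1 and 34.4 CPM in 2D-primed and 40.3, 38.7, 35.1 and 36.9 CPM in 3D-primed libraries (log2 fold change 0.08, adjusted p = 0.221 by edgeR). MRPS18B (mS40) measured 72.7, 78.2, 77.7 and 77.5 CPM in 2D-primed and 77.9, 77.1, 78.1 and 70.9 CPM in 3D-primed libraries (log2 fold change -0.01, adjusted p = 0.860). MRPS18C (bS18m) measured 16.5, 16.7, 19.9 and 16.5 CPM in 2D-primed and 20.1, 20.2, 17.5 and 19.0 CPM in 3D-primed libraries (log2 fold change 0.14, adjusted p = 0.135). The groups overlapped in all 3. The third 2D-primed library was high for MRPS18C, and without it the log2 fold change was 0.21 (adjusted p = 0.0181). Against the typical member MRPS18A and MRPS18B lagged (-0.16 and -0.25, adjusted p = 0.0145 and 0.00307), and MRPS18C did not pass (-0.10, adjusted p = 0.238).

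MRPS30, whose protein sits in the large subunit as mL65, measured 37.98, 40.2, 39.0 and 44.4 CPM in 2D-primed and 43.6, 39.7, 40.4 and 43.0 CPM in 3D-primed libraries (log2 fold change 0.04, adjusted p = 0.510 by edgeR). MRPS36, whose product is no ribosomal protein, measured 17.4, 18.9, 18.9 and 18.7 CPM in 2D-primed and 22.6, 19.3, 17.4 and 21.7 CPM in 3D-primed libraries (log2 fold change 0.13, adjusted p = 0.183). Both overlapped between the groups. Without 3D-primed replicate 3 the log2 fold change of MRPS36 was 0.19 (adjusted p = 0.0252).

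Levels were compared between genes as CPM per kilobase of the annotated canonical transcript. The median of the members was 24.4 CPM per kilobase for 2D-primed and 28.6 for 3D-primed cells, against 6.11 and 6.01 over all genes tested. Averaged over all 8 libraries, MRPL12 (80.3 CPM per kilobase), MRPL37 (76.9) and MRPS24 (64.3) stood highest, and MRPS11 (3.80), MRPL42 (4.02) and MRPS33 (5.28) stood lowest. The order differed by group. MRPL37 (75.2 CPM per kilobase) led MRPL12 (69.0) and MRPS24 (62.7) in 2D-primed cells. In 3D-primed cells MRPL12 (91.6) led MRPL37 (78.7), and MRPS7 (67.3), MRPL14, MRPS26 and MRPL51 lay above MRPS24 (65.8). MRPS11 was lowest in 2D-primed (2.75) and MRPL42 in 3D-primed cells (3.73). The low values go with long annotated transcripts of 3392, 15557 and 4210 bases, so that a shorter transcript in these cells would give a higher level. MRPL37 (mL37) measured 110.5, 116, 109 and 110.1 CPM in 2D-primed and 126, 119, 106 and 117 CPM in 3D-primed libraries (log2 fold change 0.07, adjusted p = 0.291 by edgeR). MRPS24 (uS3m, whose bacterial counterpart lines the entry of the messenger RNA) measured 40.4, 41.8, 43.2 and 41.9 CPM in 2D-primed and 46.6, 45.6, 39.5 and 43.8 CPM in 3D-primed libraries (log2 fold change 0.07, adjusted p = 0.289). In both genes the third 3D-primed library fell below every 2D-primed library and the other 3 lay above, and without it the log2 fold changes were 0.10 and 0.11 (adjusted p = 0.0466 and 0.0386). MRPS33 (mS33) measured 18.6, 19.1, 19.2 and 17.9 CPM in 2D-primed and 28.1, 26.3, 24.1 and 24.7 CPM in 3D-primed libraries, with no overlap (log2 fold change 0.46, SE 0.0580, adjusted p = 5.35e-05).

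Because MRPL46 and MRPS11 start next to each other, the neighbours of all members were looked at after these values were known. A head-to-head pair was taken as 2 tested protein-coding genes on opposite strands whose annotated starts lie at most 1000 bases apart without overlap. There were 656 such pairs, and 17 of them held 17 members. In 5 of the 17 both genes rose, in 1 they moved in opposite directions, in 8 only 1 gene was called and in 3 neither was. Both genes were called in the same direction in 29.4% of the pairs with a member and in 26.4% of all pairs. The shares are close, so the MRPL46 and MRPS11 pair is described as a single case.

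In several pairs the member rose and its neighbour did not pass the test. FAU, which encodes a ubiquitin-like fusion of cytosolic ribosomal protein eS30, had a log2 fold change of 0.04 where MRPL49, 6 bases away, rose by 0.55. MITD1 had 0.13 where MRPL30, 94 bases away, rose by 0.72. The reverse held for MRPS12 (0.06) beside the mitochondrial seryl-tRNA synthetase gene SARS2 (0.45). MRPL36 (0.43) and NDUFS6 (0.50), a gene for a subunit of respiratory complex I, rose together, whereas MRPL47 (0.19) rose beside NDUFB5 (-0.03), another complex I gene, which did not pass the test. MRPL52 rose by 0.50 on the log2 scale where the amino acid transporter gene SLC7A7, 59 bases away, fell by 1.40. MRPL21 (0.04) and MRPL54 (-0.02) did not pass the test beside IGHMBP2 (-0.33) and APBA3 (-0.66), which fell.

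**Figure D4:**
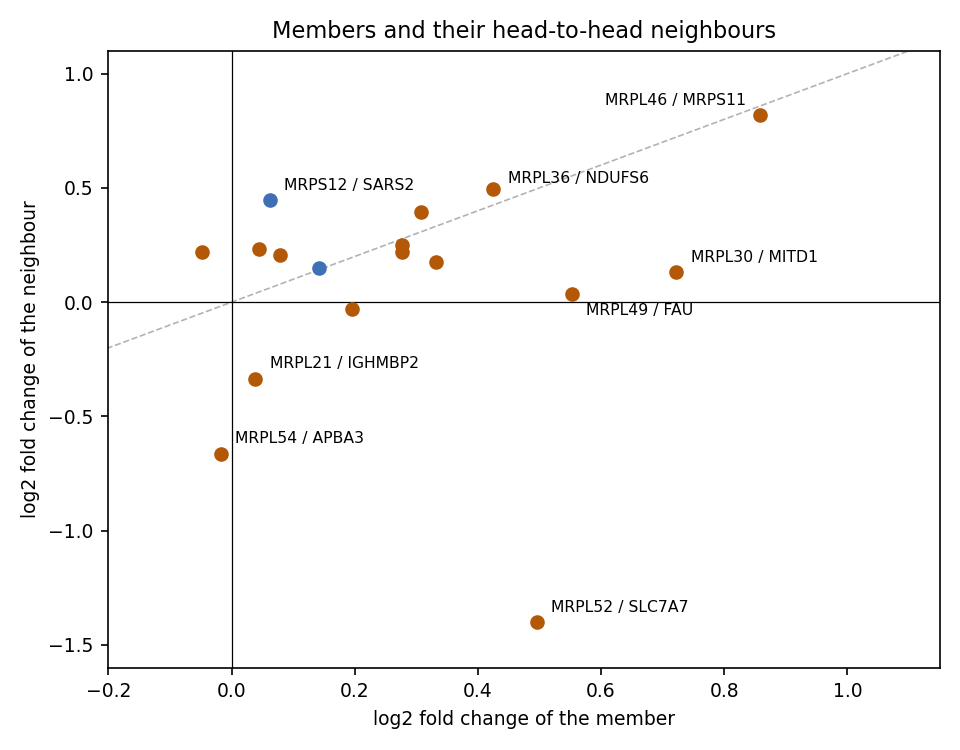
Log2 fold change of a member (x axis) and of its head-to-head neighbour (y axis), 3D-primed over 2D-primed, 1 point a pair (orange MRPL, blue MRPS; the dashed line marks equal change). MRPL46 and MRPS11 lie together at 0.86 and 0.82, while MRPL30 and MRPL49 rose beside neighbours at 0.13 and 0.04.

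The promoter elements of the members were also set beside their change between the cultures. CCGGAAG was in 29 of the 68 windows of the members (42.6%), against 19.6% of all windows. The NRF1 element was in 7 (10.3%), against 11.8% of all windows. At least 1 of the 3 elements was in 44 member windows (64.7%), against 32.3% of all. The median log2 fold change was 0.23 in members with AAGATGGC and 0.25 in those without, 0.25 and 0.24 for CCGGAAG, and 0.43 and 0.24 for the NRF1 element. Members with the NRF1 element were MRPL30, MRPS9, MRPL36, MRPL14, MRPS33, MRPL17 and MRPL57, of which 6 rose. Of the 61 members whose windows lack it 38 rose, and of all genes tested 32.4% rose. With 7 genes this is given as a description. A match of letters is no evidence that a factor was bound.

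The genes that build and serve the mitochondrial ribosome were counted from lists drawn up from general knowledge. Beside each of these lists, and that of the cytosolic ribosome, stand the shares over all genes tested. Those were 32.4% higher and 31.6% lower in 3D-primed cells. Of the 5 ribosomal proteins with other symbols 3 rose (60%) and 0 fell, with a median log2 fold change of 0.18. In this list and in those of the translation factors and of mitochondrial DNA, 0 genes were lower at an unadjusted p under 0.05 in edgeR, and DESeq2 and limma-voom also called 0 lower. Among them PTCD3 (mS39) measured 72.7, 73.0, 62.6 and 68.1 CPM in 2D-primed and 98.3, 103, 93.8 and 104 CPM in 3D-primed libraries (log2 fold change 0.53, SE 0.0564, adjusted p = 1.63e-05 by edgeR). DAP3 (mS29), a GTP-binding protein, rose from 66.8 ± 0.388 to 75.5 ± 3.87 CPM (SD, n = 4; log2 fold change 0.18, adjusted p = 0.00369).

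Of 26 genes for assembly of the ribosome and modification of its RNA 18 rose (69.2%) and 2 fell (7.69%), with a median of 0.28. DDX28, an RNA helicase needed to assemble the large subunit, measured 10.1, 9.60, 9.24 and 10.0 CPM in 2D-primed and 19.5, 19.6, 17.4 and 18.3 CPM in 3D-primed libraries. That is a log2 fold change of 0.94 (SE 0.0610, adjusted p = 5.70e-07 by edgeR), larger than that of any member. TFB1M, which methylates the small subunit's RNA, rose by 0.69 (adjusted p = 3.27e-06). The GTPase gene NOA1 and the helicase gene DHX30 fell, by 0.17 and 0.13 on the log2 scale, and DHX30 did not pass the test under upper-quartile scaling (adjusted p = 0.0751).

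Of 18 genes for translation factors and mRNA carriers 14 rose (77.8%, against 32.4% of all genes) and 0 fell, with a median of 0.26. TSFM, the exchange factor of the elongation factor Tu, rose from 17.9 ± 0.932 to 28.1 ± 1.51 CPM (SD, n = 4; log2 fold change 0.65, adjusted p = 4.56e-06 by edgeR). TACO1, which activates translation of the cytochrome c oxidase subunit 1 messenger, rose by 0.58 (adjusted p = 2.30e-05).

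Of 14 genes for transcription of mitochondrial DNA and processing of its RNA 8 rose (57.1%) and 3 fell (21.4%), with a median of 0.20. HSD17B10, a subunit of mitochondrial RNase P, rose by 0.64 (adjusted p = 1.38e-05 by edgeR), and TFAM, which packs mitochondrial DNA and starts its transcription, rose by 0.57 (adjusted p = 2.72e-06). POLRMT, the mitochondrial RNA polymerase, measured 88.9, 101, 99.0 and 106 CPM in 2D-primed and 76.4, 71.8, 73.0 and 75.3 CPM in 3D-primed libraries. All 3D-primed libraries were lower (log2 fold change -0.41, SE 0.0532, adjusted p = 6.40e-05). ELAC2, which cuts the 3′ ends of transfer RNAs, fell by 0.19 (adjusted p = 0.00227).

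Of the 13 protein-coding genes of mitochondrial DNA, whose messengers the mitochondrial ribosome translates, 12 rose (92.3%) and 0 fell, with a median of 0.88. MT-CO3, a cytochrome c oxidase subunit, measured 1083, 895, 832 and 1062 CPM in 2D-primed and 2108, 1974, 2175 and 2533 CPM in 3D-primed libraries (log2 fold change 1.18, SE 0.0990, adjusted p = 3.11e-06 by edgeR). MT-ND3, a complex I subunit, rose by 0.96 (adjusted p = 1.38e-06). MT-ND6, the 1 gene of the 13 on the other strand, stayed under 10 CPM in every library and did not pass the test (0.49, adjusted p = 0.0934). The libraries were made from RNA selected by its poly(A) tail, and how that selection acted on mitochondrial transcripts was not tested.

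The cytosolic ribosome, which makes the mitochondrial ribosomal proteins themselves, gives a further comparison. Of 79 genes 78 passed the filter, 41 rose (52.6%) and 1 fell (1.28%), with a median log2 fold change of 0.12. On the scale set by the mitochondrial ribosomal members 39 of the 78 lagged and 5 rose beyond, against 48.2% and 15.7% of all genes. RPL6 measured 506, 545, 520 and 531 CPM in 2D-primed and 806, 846, 800 and 791 CPM in 3D-primed libraries (log2 fold change 0.63, SE 0.0386, adjusted p = 4.19e-07 by edgeR), and RPL5 rose by 0.41 (adjusted p = 3.61e-06). RPL12 was the 1 that fell, by 0.18 on the log2 scale (adjusted p = 0.00449), and 3 fell without 3D-primed replicate 1. The number that rose was 30 to 48 with 1 library left out and 33 to 56 under the other alternatives. RPS9 ran from 0 to 29.2 CPM in 2D-primed and from 2.69 to 51.0 CPM in 3D-primed libraries, a spread wider than the gap between the groups, and its value is not read here.

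**Figure D5:**
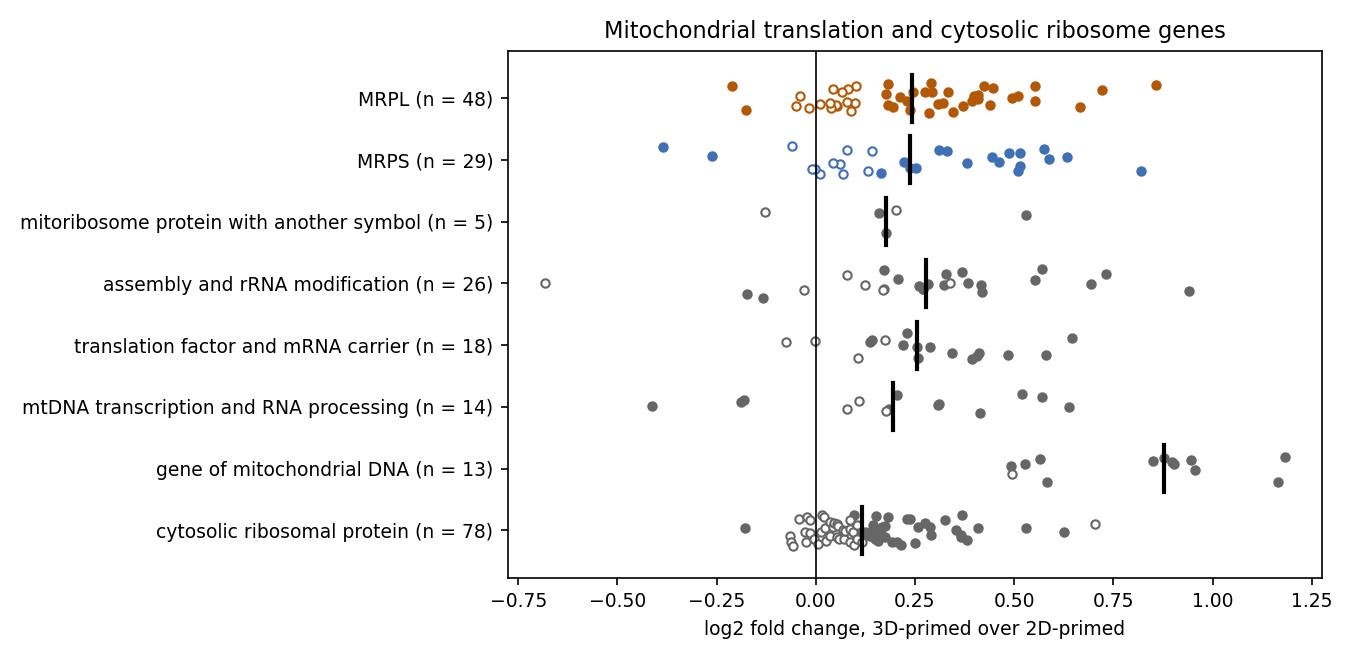
Log2 fold change, 3D-primed over 2D-primed, of the MRPL and MRPS genes and of 6 lists of related genes, 1 point a gene (filled, passed the test; open, not; vertical bar, the list's median; points are spread vertically for sight). Medians lie at 0.24 for MRPL and MRPS, at 0.88 for the genes of mitochondrial DNA and at 0.12 for the cytosolic ribosomal proteins.

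Pseudogenes can take reads from the genes they copy. Among the gene identifiers in the deposited counts, 77 have symbols of pseudogenes named after the members. Of these 2, MRPS31P5 and MRPS31P4, had 10 or more counts in a library. MRPS31P5 had 104 to 148 counts in 2D-primed and 39 to 69 counts in 3D-primed libraries, the direction opposite to MRPS31 (log2 fold change 0.51). The 6 members MRPL28, MRPL33, MRPL46, MRPL53, MRPS17 and MRPS6 overlap another tested gene on the same strand. Their counts therefore depend on how the reads were divided. With annotated genes that were not tested included, 24 members overlap another gene on the same strand, among them MRPL30, MRPL2 and MRPS5. What these overlaps did to the counts was not tested.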

How the data were processed

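RNA of 8 HepG2 cultures was sequenced as polyadenylated, strand-specific libraries, and read pairs were assigned to Ensembl release 98 transcripts of GRCh38 with Salmon 0.14.1 and summed to genes with tximport 1.12.3. The authors deposited estimated counts per gene, whole numbers without scaling for depth (21599630 to 27844077 per library). Whether they carry a correction for transcript length is not given in the sources used here. Symbols and positions were taken from GENCODE 44 by identifier (34977 of 38032 matched).

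Genes with 10 or more counts in 2 or more libraries were tested with edgeR 4.0.16 (TMM, glmQLFit, glmQLFTest, Benjamini-Hochberg, threshold 0.05) in R 4.3.3. A second fit scaled the libraries by the median ratio of the members. CPM are TMM-scaled. Figures were drawn with Python 3.11.15, pandas 2.3.3 and matplotlib 3.10.9. DESeq2 1.42.0, limma-voom (limma 3.58.1), other scalings and filters, and leaving out each library were alternatives. Counts were simulated for the 13943 genes tested, with a spread between libraries set by the trend with expression level and not by each gene's own spread. Of these, 13735 passed the filter again and were fitted. Among them 88 changed by 0.5 and 112 by 1 on the log2 scale, all of them well expressed. There edgeR recovered 80.7% of log2 changes of 0.5 and 98.2% of changes of 1 for 3D-primed against 2D-primed, and 3.21% of its calls were of unchanged genes. For DESeq2 12.4% of the calls were of unchanged genes. Far more genes were called in the real data (8916 of 13943), so these rates need not hold there.

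Values per library are given for members called with the 5 largest changes in each direction, up to 5 apart from the rest in each direction by smallest p, the 3 highest and lowest per kilobase, and the S18 paralogs, stalk proteins, MRPS30 and MRPS36. Lists name the 2 called genes of smallest p in each direction. The members and lists were chosen with earlier results of these data known. Human liver and primary hepatocyte data were not used here. Promoter windows came from RefSeq (GRCh38.p14).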

Additional observations from a re-analysis of the deposited data

Results flagged for a closer look

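The 44 groups of 4 libraries tested were those of the named members, of the MRPL and MRPS sums and of their ratio. In 6 of them, all of named members, 1 library stood apart from the other 3 by Dixon's criterion, which chance meets in about 1 of 20 groups. MRPL23 measured 36.5 CPM in 3D-primed replicate 1, against 33.6 to 33.8 CPM in the others. MRPL37 measured 116 CPM in 2D-primed replicate 2, against 109 to 110.5 CPM. MRPS18B measured 72.7 CPM in 2D-primed replicate 1, against 77.5 to 78.2 CPM, and 70.9 CPM in 3D-primed replicate 4, against 77.1 to 78.1 CPM. MRPS18C measured 19.9 CPM in 2D-primed replicate 3, against 16.5 to 16.7 CPM. MRPS36 measured 17.4 CPM in 2D-primed replicate 1, against 18.7 to 18.9 CPM.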

How the results depend on the processing

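The number of members that rose was 44 to 52 with 1 library left out and 46 to 51 under the other alternatives, and 4 fell each time. Of the 48 that rose 44 were called in every alternative, and MRPS34, MRPL14, MRPL43 and MRPL41 were not. Members beyond the rest numbered 20 to 26 and those behind it 21 to 26. By structural subunit the ratio of the sums was 1.85 for 2D-primed and 1.84 for 3D-primed cells, a change that follows from moving MRPS30 and MRPS18A and leaving out MRPS36. Under upper-quartile scaling 1 assembly gene fell, and cytosolic ribosomal genes that fell numbered 1 to 3 with 1 library left out, 3 of them without 3D-primed replicate 1. The cause was not tested. Uncalled members changed sign: MRPL10 was at 0.0020 under upper-quartile scaling, and MRPS18B was at 0.018 with total counts, 0.041 with upper-quartile scaling, and -0.034 to 0.023 with 1 library left out. MRPS18A and MRPS18C passed the test under upper-quartile scaling (MRPS18A at adjusted p = 0.0447 by edgeR).

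Same-numbered libraries of the groups did not deviate together (correlations of -0.04, -0.01, 0.06 and 0.01), so the numbers were not taken as pairs. With the replicate number as a block, 47 members rose and 4 fell, and 8490 of all genes were called against 8916 without it.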
